A study of Drosophila melanogaster with 2 samples.

Results

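Divergent promoter peaks are sites of ranshi-eGFP that lay between a pair of protein-coding genes transcribed away from each other. They were chosen by position alone, from the conservative set of peaks, which holds the sites that recurred between both replicates. The summit, the highest point of a peak, had to lie between a minus-strand transcript start on its left and a plus-strand start of another gene on its right, each at most 500 bp away. Of 2984 conservative peaks, 473 met the rule (15.9%, 95% Wilson interval 14.6 to 17.2). They lay between 463 gene pairs with 926 genes, since 10 pairs held 2 peaks. No other protein-coding start lay between the named starts at 395 members, and at 78 there was at least 1. In addition, 122 summits were inside an annotated transcript of a protein-coding gene.

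Chromatin immunoprecipitation and sequencing had been done on whole Drosophila melanogaster embryos, 0 to 24 h old, of a transgenic line whose insertion carries ranshi fused to eGFP. The protein was pulled down with an antibody against GFP, from chromatin that was sonicated to a size range of 200 to 800. There was 1 group, of 2 biological replicates, so no condition could be compared, and control libraries were not analysed here. Each peak is a mean over all cell types of the embryo, and the sources used here do not state how deeply the libraries were read. Replicate 1 had 112688 candidate peaks with 3636 in its thresholded set, and replicate 2 had 83284 with 3149.

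Genes in the compact fly genome often share an upstream region with a neighbour on the other strand, so that a single stretch of DNA serves as a promoter in both directions. Many such pairs encode proteins that nearly every cell needs, and their promoters tend to carry elements such as the DNA replication-related element (DRE) and Motif 1 rather than those of developmentally regulated genes. ranshi encodes a zinc finger protein with a ZAD domain, a dimerisation domain found in a large insect family that includes insulator proteins and promoter-binding proteins. Zinc finger proteins of this kind bind DNA by its sequence.

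The gaps below, from start to start, are those of 5 of the highest peaks. They were picked for a limited width and for having no annotated exon, so their widths do not represent those of all members. The sequences are from RefSeq, build dm6, plus strand, and capitals mark the 51 bases centred on the summit. The gap of CG7601 and CIA30 is chr3R:29736746-29736964, that of Tcs5 and CHMP2B is chr3L:5139396-5139618, that of Art3 and mRpS10 is chr3R:15229409-15229664, that of CG13390 and CG17294 is chr2L:8376798-8377034 and that of Atat and Shc is chr3L:9426759-9427009.
CG7601/CIA30: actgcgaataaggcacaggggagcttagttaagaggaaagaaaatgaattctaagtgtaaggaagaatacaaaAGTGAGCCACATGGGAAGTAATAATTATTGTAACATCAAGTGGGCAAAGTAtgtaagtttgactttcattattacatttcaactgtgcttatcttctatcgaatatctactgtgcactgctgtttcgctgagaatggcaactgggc
Tcs5/CHMP2B: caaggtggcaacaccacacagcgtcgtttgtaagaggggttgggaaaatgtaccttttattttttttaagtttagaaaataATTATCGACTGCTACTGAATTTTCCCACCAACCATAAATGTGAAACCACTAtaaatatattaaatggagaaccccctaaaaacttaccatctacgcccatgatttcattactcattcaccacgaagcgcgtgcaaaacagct
Art3/mRpS10: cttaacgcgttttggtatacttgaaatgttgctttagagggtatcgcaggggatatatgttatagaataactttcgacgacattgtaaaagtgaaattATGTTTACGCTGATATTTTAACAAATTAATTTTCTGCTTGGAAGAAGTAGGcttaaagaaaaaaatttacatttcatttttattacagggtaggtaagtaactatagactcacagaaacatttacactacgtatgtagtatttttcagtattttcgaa
CG13390/CG17294: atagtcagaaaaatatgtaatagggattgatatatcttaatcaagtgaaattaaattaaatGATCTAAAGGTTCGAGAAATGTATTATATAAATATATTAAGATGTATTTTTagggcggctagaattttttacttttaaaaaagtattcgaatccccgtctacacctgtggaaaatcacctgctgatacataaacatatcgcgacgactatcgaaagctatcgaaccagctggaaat
Atat/Shc: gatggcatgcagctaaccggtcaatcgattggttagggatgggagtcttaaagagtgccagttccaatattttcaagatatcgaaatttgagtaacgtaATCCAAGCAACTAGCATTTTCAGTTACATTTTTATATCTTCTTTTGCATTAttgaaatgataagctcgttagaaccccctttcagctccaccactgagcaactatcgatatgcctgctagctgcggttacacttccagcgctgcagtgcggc

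The summit stretch had 37.3% G+C in the CG7601 and CIA30 gap, against 38.1% in the rest of that gap. It had 19.6% against 33.9% between CG13390 and CG17294, and 27.5% against 47.0% between Atat and Shc. Values for Tcs5 and CHMP2B (37.3% against 38.4%) and for Art3 and mRpS10 (29.4% against 30.2%) lay close together. Within 100 bp to each side of the summit, the Atat and Shc site held a DRE, a Motif 7 and a TATA box, among others, by the letters given further on. The Art3 and mRpS10 window matched the 5-letter core of BEAF-32 and none of the other 12 motifs searched.

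For contrast, 2 gaps are shown that held a candidate but no thresholded peak in any list. They were picked among narrow gaps without an annotated exon because they hold Motif 1, which is in capitals. They are the gaps of CG42340 and CG3918 at chrX:6524324-6524463 (140 bp, candidate signal 50.3) and of Mi-2 and Prp3 at chr3L:19910216-19910299 (84 bp, candidate signal 47.4).
CG42340/CG3918: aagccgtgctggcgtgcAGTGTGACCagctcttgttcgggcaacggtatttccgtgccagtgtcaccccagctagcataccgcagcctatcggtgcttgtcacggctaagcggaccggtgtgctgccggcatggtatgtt
Mi-2/Prp3: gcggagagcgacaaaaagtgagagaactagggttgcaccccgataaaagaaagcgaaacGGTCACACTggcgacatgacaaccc

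Ranshi-eGFP peaks were found in divergent gaps more often than upstream of genes that face no such neighbour. A divergent gap was any stretch of at most 1000 bp from a minus-strand start to the next plus-strand start. Stretches that overlapped were merged into a single gap. Of 2511 such gaps, 495 held a conservative summit, a share of 19.7% (18.2 to 21.3). Of 8836 regions covering the 500 bp upstream of other protein-coding genes, 420 held a summit, a share of 4.75% (4.33 to 5.22). The odds ratio was 4.92 (95% interval 4.27 to 5.67, p = 1.35e-108 by Fisher's exact test, 2-sided). Peaks are not replicates of a condition, and these intervals and p-values cover counting error only. Per length, the gaps held 520 summits per Mb (518 in 0.997 Mb) and the single-gene regions 96.0 per Mb (424 in 4.42 Mb). A gap has a start at both ends and a single-gene region at only one, and no comparison here adjusts for this. Among gaps and regions that held a candidate summit at all, the shares were 42.4% and 14.5% (odds ratio 4.33, p = 8.77e-77 by Fisher's exact test). Of the 473 members, 435 fell inside such a gap. The other 38 had a further protein-coding start between the named starts. A gap can also hold a summit that is farther than 500 bp from a start.

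Among the 2013 unmerged gaps, the share with a peak was highest at 200 to 299 bp. It was 3.18% in 283 gaps under 100 bp, 8.45% in 142 gaps of 100 to 149 bp and 10.6% in 104 gaps of 150 to 199 bp. It was 30.1% (23.8 to 37.3) in 176 gaps of 200 to 249 bp and 28.8% (23.5 to 34.8) in 243 gaps of 250 to 299 bp, intervals that do not overlap those of the 3 narrower classes. Wider gaps had shares of 23.5% at 300 to 399 bp, 22.2% at 400 to 499 bp, 18.4% at 500 to 699 bp and 14.6% at 700 to 999 bp. The intervals of neighbouring classes in that series overlapped, and the trend was not tested. A narrow gap is a smaller target, and these shares are per gap, not per length.

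**Figure D1:**
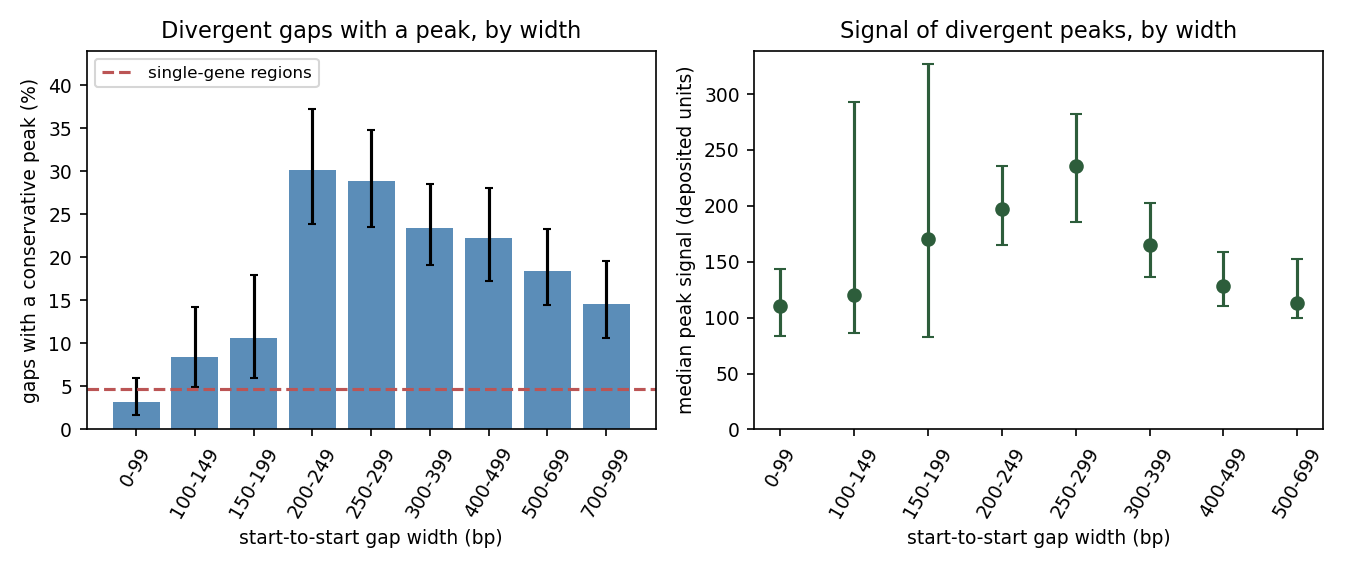
Left, the share of the 2013 unmerged divergent gaps with a conservative peak (percent, 95% Wilson intervals) by start-to-start width in bp. The dashed line is at 4.75% for single-gene regions. Right, the median signal of divergent peaks with no other start between, with its 95% interval, by width up to 699 bp. Shares of 30.1% and 28.8% at 200 to 299 bp top the left panel, and the median of 236 at 250 to 299 bp tops the right one.

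Signal was also highest at this width, among the 395 members with no other start between. The deposited signal is a value that the peak caller gave each peak, and it was used only within a list. Members in gaps of 250 to 299 bp had a median of 236 (95% interval 185 to 282, 83 peaks) and those of 200 to 249 bp a median of 197 (165 to 236, 69 peaks). At 500 to 699 bp the median was 113 (99.4 to 153, 48 peaks), and under 100 bp it was 111 (83.6 to 144, 12 peaks). The interval at 250 to 299 bp overlapped neither of these last intervals, nor that at 400 to 499 bp (110 to 159). It did overlap those at 100 to 149 bp (86.3 to 293), 150 to 199 bp (82.6 to 327), 200 to 249 bp and 300 to 399 bp (137 to 203). In the unmerged gaps, mean G+C over the whole gap was 34.8% with a peak and 36.0% without at 250 to 299 bp. Under 100 bp it was 44.8% and 44.7%, so that the narrowest gaps were the most G+C rich whether or not they held a peak. The part of base composition in the shares by width was not tested.

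Summits tended to lie about 100 bp upstream of the nearer start. The rule bounds both distances, so they are given as a description. The distance to the nearer start had a median of 98 bp (quartiles 65 and 128, highest 401), and that to the farther start a median of 196 bp (quartiles 146 and 295, highest 496). The nearer start was 80 to 150 bp away at 244 members (51.6%), and both starts were within that range at 74. The nearer start was on the minus strand in 219 cases and on the plus strand in 253, with 1 summit midway. The gap between the named starts ran from 7 to 863 bp, with a median of 298 bp (quartiles 239 and 410).

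As gaps widened, the distance to the farther start grew more than that to the nearer. Both distances add up to the gap, and the nearer is the smaller by definition. Such a pattern can therefore arise without any preferred spacing, which was not tested. In gaps of 200 to 249 bp the median was 90 bp to the nearer start and 143 bp to the farther. In gaps of 300 to 399 bp it was 105 and 250.5 bp, and at 500 to 699 bp it was 137.5 and 424.5 bp. In the 2 members of 700 to 999 bp it was 323.5 and 467 bp. These medians by width are of the 395 members with no other start between. That limit caps the farther distance in every gap over 500 bp and raises the nearer one there. Peaks upstream of a single gene, of which there were 722, had a median position of -165 bp (quartiles -263 and -98).

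**Figure D2:**
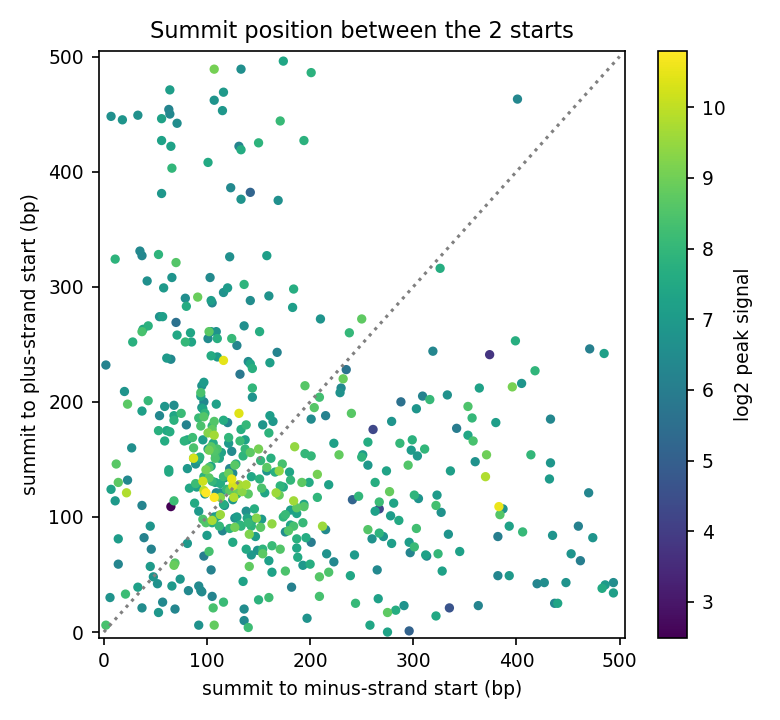
Distance from each of the 473 summits to the minus-strand start (x axis, bp) and to the plus-strand start (y axis, bp), coloured by log2 signal, with the dotted line where both are equal. Points are dense where both distances are near 100 bp, and the 2 arms along the axes are summits near 1 start and far from the other.

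Divergent peaks reached the upper ranks of the list, and their signals did not pass a test against those of single-gene promoter peaks. Signals ran from 5.63 to 1780, with a median of 169 (95% interval 154 to 185, quartiles 109 and 274). The median was 157 (146 to 171) at single-gene promoter peaks and 127 (122.7 to 130.8) at the 1789 remaining peaks. Of the members, 248 (52.4%) exceeded 164, the pooled median with single-gene peaks, against 349 of 722 (48.3%), and the test was not passed (odds ratio 1.18, 95% interval 0.928 to 1.496, adjusted p = 0.217 over 5 comparisons with single-gene peaks by Fisher's exact test). Without replicate 1, in the thresholded set of replicate 2 alone, the odds ratio was 1.49 (p = 0.00154 by Fisher's exact test). In that of replicate 1 alone it was 1.13 and was not passed (p = 0.295 by Fisher's exact test). Nor was it passed with the cut at the upper 25% of the pooled signals (odds ratio 1.07, p = 0.633 by Fisher's exact test). With both starts within 250 bp it was 1.75 (p = 7.16e-05 by Fisher's exact test). Against all other conservative peaks, 60.9% of members and 47.9% of the rest exceeded the overall median of 137 (odds ratio 1.69, 1.38 to 2.08, p = 2.91e-07 by Fisher's exact test). Members made up 7 of the 20 highest peaks, 25 of the 100 highest and 75 of the 300 highest (25%).

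The highest member lay between CG7601 and CIA30, whose product assembles respiratory complex I, with a signal of 1780 (rank 5 of 2984). It had 1317 in replicate 1 and 482 in replicate 2, rank 5 in both, with the starts 99 and 121 bp from the summit. The next, between Tcs5, a kinase of the tRNA-modifying KEOPS complex, and CHMP2B, a membrane-remodelling ESCRT-III protein, had a signal of 1730, with 1278 in replicate 1 and 456 in replicate 2. Both sites ranked among the 8 highest thresholded peaks of each replicate, so both were high in each embryo sample.

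Genes of the mitochondrial ribosome stood beside 3 of the 15 highest members, and made up 14 of the 926 genes of all member pairs. The peak between mRpS23 and CenG1A, a GTPase-activating protein for Arf, had a signal of 1514, with 1047 in replicate 1 and 478 in replicate 2, in a gap of 491 bp where the summit was 109 bp from CenG1A and 383 bp from mRpS23. The peak between mRpS10 and Art3, an arginine methyltransferase gene, had 1392, with 995 and 403 in the replicates. That between mRpL23 and CG9004 had 1146, with 854 and 292. The last 2 summits had both starts within 80 to 150 bp, whereas the first was far from its ribosomal gene.

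Other members of this group flanked genes of chromatin and transcription. Chro, encoding a protein of polytene chromosome interbands, and Ssl1, a subunit of the transcription factor TFIIH, shared a peak of 1346 (1040 in replicate 1 and 309 in replicate 2). The pair brm, the ATPase of the Brahma chromatin remodelling complex, and Arl1, a Golgi GTPase, had 863 (658 and 206). Both were within the thresholded sets of both replicates.

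Uncharacterised genes made up much of the remainder. CG13390 and CG17294 had a peak of 1236 (830 and 414 in the replicates). CG1275 and Elp5, a subunit of the Elongator complex, had 1012 (744 and 282), CG3437 and CG3552 had 894 (613 and 274), and CG5757 and CG5098 had 889 (735 and 156). Mnat9 and CG1792 had 892 (628 and 261), in the narrowest gap of the 15 at 142 bp, and fws, a subunit of the Golgi COG complex, and Lamtor3, a Ragulator subunit, had 835 (570 and 257). All 15 highest members had a thresholded peak in both replicates, 14 had the nearer start 80 to 150 bp away, and 11 had no other start between. Their gaps had a median of 242 bp.

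The lowest member signal, 5.63 at Mic26-27 and CG5916 (rank 2964), came with candidate signals of 107 in replicate 1 and 34.6 in replicate 2. The signal in the conservative list is thus not the mean of those in the replicate lists, and a low value there does not mean a low value in each replicate.

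Most members had a thresholded peak in each replicate, more often in replicate 1. The conservative set holds sites that recurred between these same replicates, so the overlap is in part fixed by that choice. A thresholded peak overlapped 304 members in both replicates (64.3%), where the same share over all conservative peaks was 59.5%. In replicate 1 alone there were 127, in replicate 2 alone 19, and at 23 members neither replicate's own set had a peak. In replicate 1, 431 members had a thresholded peak (91.1%), against 86.6% of single-gene peaks (odds ratio 1.59, 1.07 to 2.39, adjusted p = 0.0413 by Fisher's exact test). In replicate 2, 323 had a peak (68.3%), against 74.0% (odds ratio 0.758, 0.583 to 0.987, adjusted p = 0.0594 by Fisher's exact test). For both replicates together the odds ratio was 0.874 (0.680 to 1.12, adjusted p = 0.288 by Fisher's exact test). Against all other conservative peaks that direction turned, with 64.3% and 58.5% (odds ratio 1.27, p = 0.0216 by Fisher's exact test), and it was 1.01 with both starts within 250 bp.

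Candidates were nearly always present, which the choice of sites that recurred between both replicates makes likely. All but 5 members had a candidate peak in replicate 1 and all 473 had one in replicate 2, leaving 468 with both. Candidate signals ran from 31.2 to 1317 in replicate 1 (median 120) and from 23.7 to 482 in replicate 2 (median 51.6), on scales that are not comparable between lists. Across the 468 members Pearson's r was 0.72 on log2 signals and Spearman's rho was 0.64, given as a description since the points share both libraries and the selection for recurrence. The summits of both replicates lay within 30 bp of each other at 279 of the 468 (59.6%), with a median distance of 21 bp (quartiles 7 and 57, highest 390).

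**Figure D3:**
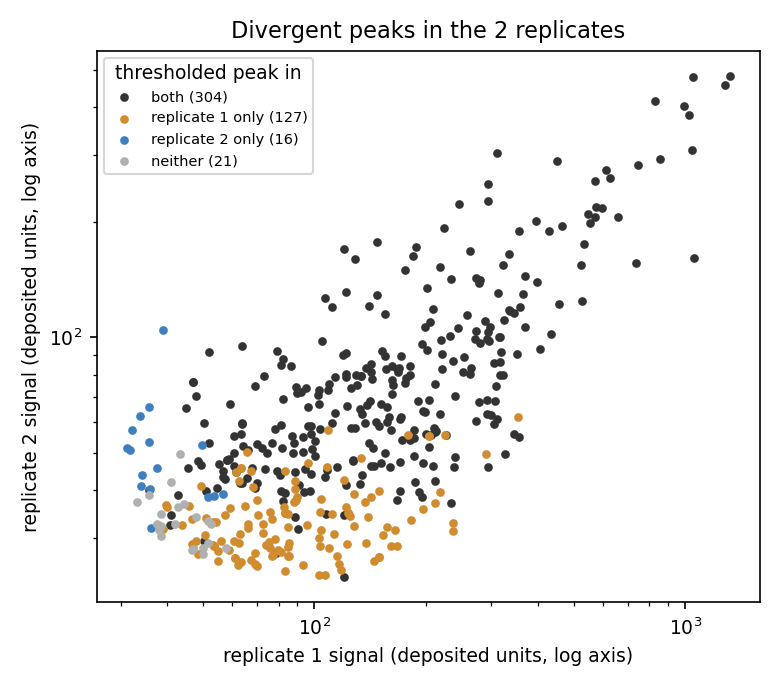
Candidate signal of 468 divergent peaks in replicate 1 (x axis) and replicate 2 (y axis), both in deposited units on log axes, coloured by the replicate whose thresholded set held a peak (both 304, replicate 1 alone 127, replicate 2 alone 16, neither 21). The peaks found in replicate 1 alone lie low on the y axis and the highest peaks are found in both.

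Some members ranked very differently in the replicates. Atat, an alpha-tubulin acetyltransferase gene, and Shc, an adaptor of receptor tyrosine kinases, had 1059 in replicate 1 (rank 11) and 161 in replicate 2 (rank 179). Bdp1, a subunit of the RNA polymerase III factor TFIIIB, and CG6565 had 326 (rank 184) and 49.7 (rank 1827). Hs2st, a heparan sulfate sulfotransferase gene, and RanGAP, the GTPase-activating protein of Ran, had 355 (rank 154) and 55.1 (rank 1495). These 3 had the lowest ratios of rank share, the rank divided by the length of the thresholded list, in replicate 1 to that in replicate 2, among members thresholded in both.

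The highest ratios were at zuc, the nuclease of piRNA maturation, and dgt2, an augmin subunit, with 120 in replicate 1 (rank 1058) and 170 in replicate 2 (rank 164). CG11309 and CG7632 had 311 (rank 205) and 303 (rank 37). RpL41, a ribosomal protein gene, and NaCP60E, a sodium channel gene, had 129 (rank 949) and 160 (rank 185). With 1 library on each side these differences have no replicate check.

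At the extremes of gap width, SerRS, a seryl-tRNA synthetase gene, and CG17260 had starts 7 bp apart and a peak of 332 (251 in replicate 1, 81.3 in replicate 2). CG8089 and CG7544, 35 bp apart, had 109 (55.4 and 46.8), and zuc and dgt2, 53 bp apart, had 293. The widest gap, 863 bp between the capping enzyme gene mRNA-cap and CG32599, had 81.1, with 50.9 in replicate 1 and a candidate of 33.7 below the threshold in replicate 2. Rok and RpS19a, 726 bp apart, had 145 (51.9 and 91.9), and CG2246 and CG31021, 716 bp apart, had 67.9 (40.9 and 34.3). The 3 widest gaps had lower signals than the median member, and 2 of the 3 narrowest had higher ones.

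The rule's limit of 500 bp cut through a continuous range of distances. Just inside were CCT8 and CG30349 (farther start 494 bp, signal 143), Mpc1 and CG42613 (494 bp, 92.3) and Nepl19 and Nepl20 (496 bp, 171). Just outside were CG10804 and CG10802 (501 bp, 189), zip and uzip (512 bp, 25.6) and RpS6 and bys (525 bp, 79.96).

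The 10 pairs with 2 peaks had low signals. Their 20 peaks had a median of 76.0 (range 13.6 to 271), under that of all members. In 9 of the pairs the peaks overlapped each other, and in 9 both were matched to a single candidate in replicate 1, as in replicate 2. Acbp1 and Piezo, a mechanosensitive channel gene, had peaks of 222 and 114, matched to a single candidate of 134 in replicate 1 and of 79.5 in replicate 2. RnrS, a ribonucleotide reductase subunit gene, and CG34231 had 271 and 13.6, and SAK, the Polo-like kinase of centriole duplication, and Cdk12 had 128 and 112. The others were CG16787 and alpha-Catr, Enoph and Hph, Mrtf and Non2, mRpS21 and Droj2, osi and tweek, sel and magu, and trem and idc. The counts of members are of peaks, and 463 is the number of separate gene pairs.

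Next to ranshi itself, M1BP, whose product binds Motif 1, and CG8202 shared a peak of 311 (rank 433), with 237 in replicate 1 and 46.0 in replicate 2. Its summit was 90 bp from CG8202 and 303 bp from M1BP, in a gap of 392 bp.

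Among the genes of the pairs, cytoplasmic ribosomal protein genes had a peak in their gap at the highest rate of the 17 gene lists. Over all protein-coding genes, 4965 had a start bounding a divergent gap and 1005 of these had a peak in the gap (20.2%). As members of a pair with a divergent peak there were 926 of 13968 genes (6.63%). Of 56 cytoplasmic ribosomal protein genes in gaps, 27 had a peak (48.2%), and 22 of 93 were in a member pair (23.7%) with a median signal of 174. RpL32 and CG7943 had the highest of these, 534 (356 in replicate 1 and 189 in replicate 2). RpL7 and Ripalpha had 469 (246 and 223), and RpS27 and Nup37, a nuclear pore gene, had 416 (223 and 193). The high share of this list was known from earlier results of these data, so the lists are described without a test.

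Genes of mitochondrial function had shares per gap closer to the background of 20.2%. Except in the import list, their shares in a member pair were above the 6.63% of all genes. Such a share also depends on how many genes of a list bound a gap at all. That was 59 of 75 for the mitochondrial ribosome and 47 of 89 for oxidative phosphorylation, against 4965 of all 13968 genes. Mitochondrial ribosomal protein genes had a peak in the gap at 15 of 59 (25.4%), and 14 of 75 were in a member pair (18.7%) with a median of 124, below the 169 of all members despite the 3 high peaks above. Nuclear genes of oxidative phosphorylation had one at 12 of 47 (25.5%), with 13 of 89 in a member pair (14.6%), led by ND-ASHI, a complex I subunit gene, with the fumarase gene Fum1 (424, 277 and 138 in the replicates) and by ND-MWFE, also of complex I, with the peptidase gene TppII (404, 317 and 86.3). In the small list of mitochondrial import, 2 of 7 had a peak in the gap (28.6%). Of its 18 genes the only one in a member pair (5.56%) was Tom7, of the outer membrane translocase, beside CG33199 (108).

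Genes of translation showed a range. Aminoacyl-tRNA synthetase genes had a peak in the gap at 7 of 23 (30.4%), with a median of 223, and the highest was GluProRS with the clathrin adaptor gene AP-1sigma (409, 314 and 100.2). Translation factor genes had one at 8 of 29 (27.6%), but 3 of 55 were in a member pair, led by eIF1 with RpL28 (237), while the termination factor eRF3 with the splicing factor SC35 had 159. With lists this small, a few genes move the share by several points.

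Genes of transcription and the nucleus included both high and low shares. Mediator genes had a peak in the gap at 6 of 20 (30%), led by MED27 with elm (349) and MED7 with the condensin II gene Cap-H2 (279). RNA polymerase and general transcription factor genes had one at 7 of 36 (19.4%), with a median of 290 in 8 member genes, such as Taf5 with the peroxisomal gene Pex6 (410) and Polr2B, the second subunit of RNA polymerase II, with 140up (397). Nuclear pore genes had 6 of 20 (30%), splicing genes 3 of 30 (10%), led by U2af50 with PIG-Q (261) and Sf3b6 with the nuclear importer Tnpo (255), and DNA replication genes 1 of 25 (4%), the single member being PolD2, a DNA polymerase delta subunit, with CG13933 (379). Elys, a nucleoporin that binds chromatin, with Ranbp21 had 127.

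Protein turnover and transport genes had shares per gap of 11.5% to 22.2%, beside the background of 20.2%. Vesicle transport genes had a peak in the gap at 13 of 64 (20.3%) and 12 of 99 were in a member pair (12.1%, against 6.63% of all genes), among them Snapin with Tnpo-SR (343) and Vps33B with Fur1, a furin protease gene (315). Of these 99 genes, 64 bounded a gap, against 4965 of all 13968, and the share in a member pair depends on this as well. Ubiquitin pathway genes had one at 6 of 27 (22.2%), with 6 of 49 in a member pair (12.2%), led by Usp12-46, a deubiquitinase, with the protein O-glucosyltransferase gene rumi (754, rank 67, 450 and 289 in the replicates) and by Uba3, a NEDD8-activating enzyme subunit, with tum (287). Proteasome genes had 3 of 26 (11.5%), led by Rpn3 (226) and by Prosbeta2 with mRpL39 (128), and chaperone genes 3 of 20 (15%), led by Hsc70-4 with tefu, the ATM kinase gene (259), and Hsc70-5 with CG8531 (175). Cuticle protein genes had 0 of 13, a count that allows up to 23.1%, and odorant, gustatory and ionotropic receptor genes had 1 of 26 (3.85%) with no gene in a member pair.

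Divergent gaps on the X chromosome held a peak less often than those on other arms, a comparison chosen after the values were seen. The share was 13.6% on X (54 of 397) and 20.9% elsewhere (441 of 2114), with an odds ratio of 0.597 (0.432 to 0.815, adjusted p = 0.00128 over 7 comparisons by Fisher's exact test). It was lower on X in replicate 1 alone (17.6% and 24.3%, adjusted p = 0.00498 by Fisher's exact test) and in replicate 2 alone (8.82% and 17.5%, adjusted p = 2.46e-05 by Fisher's exact test). A candidate was present in 51.1% of the gaps on X and 45.6% of those elsewhere (odds ratio 1.25, adjusted p = 0.0563 by Fisher's exact test). Among gaps with a candidate, 26.6% on X and 45.7% elsewhere held a peak (odds ratio 0.430, adjusted p = 3.31e-06 by Fisher's exact test).

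Single-gene upstream regions had a peak at 5.35% on X and 4.64% elsewhere (odds ratio 1.16, 0.886 to 1.51, adjusted p = 0.245 by Fisher's exact test). Whether the gaps and the single-gene regions differed from each other in this respect was not tested. X held 49 members (10.4%), and 20.4% of all conservative peaks. By arm, the share of gaps with a peak was 26.2% on 3L, 21.8% on 3R, 18.8% on 2L and 17.1% on 2R. On arm 4 it was 0 of 12, and a count of 0 there allows up to 25%.

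Summits of divergent peaks lay in A+T-rich DNA. Over the summit and the 100 bp to each side, mean G+C was 34.3% ± 6.77 (SD over 473 windows), against 36.0% ± 7.81 at single-gene peaks. It was 38.8% ± 7.85 at 432 candidates in divergent gaps that entered no thresholded set. Of the members, 44.6% exceeded the median pooled with single-gene peaks, against 52.2% (odds ratio 0.737, 0.580 to 0.936, adjusted p = 0.0413 by Fisher's exact test). Against the gap candidates it was 36.6% and 63.0% (odds ratio 0.340, 0.256 to 0.449, p = 1.80e-15 by Fisher's exact test). Members and gap candidates were not matched for gap width. Gaps under 100 bp, of which 9 of 283 held a peak, were G+C rich with and without one (44.8% and 44.7%). The part of gap width in this difference was not tested. In the central bin of 25 bp G+C was 31.0% at members, 32.9% at single-gene peaks and 39.8% at gap candidates. At 475 bp to the left of the summit it was 50.4%, 43.7% and 48.9%, so the members had the widest range from flank to centre of the 3 classes.

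**Figure D4:**
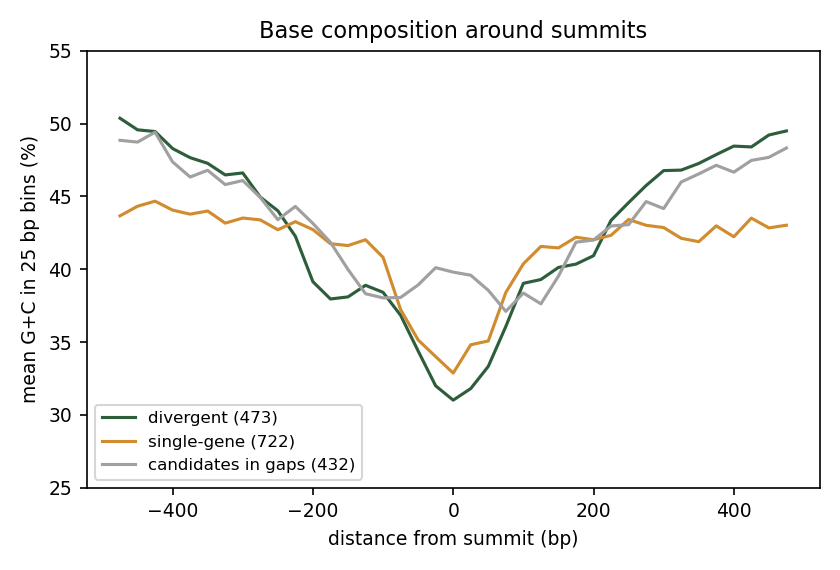
Mean G+C (percent, bins of 25 bp) by distance from the summit in bp, for 473 divergent peaks, 722 single-gene peaks and 432 gap candidates in no thresholded set. The divergent curve falls from 50.4% at the left edge to 31.0% at the centre, where the candidates are at 39.8%.

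Of 13 core promoter, insulator and factor motifs searched on both strands in these windows, 6 passed the test between divergent and single-gene peaks (46.2%), 5 more frequent at members (38.5%) and 1 less frequent (7.69%). The DRE, TATCGATA, which the factor DREF binds, was present at 10.4% of members and 5.12% of single-gene peaks (odds ratio 2.14, 1.34 to 3.43, adjusted p = 0.0036 by Fisher's exact test), and at 3.28% of all conservative peaks. Among peaks with signals above the median this call was lost (6.94% and 3.86%, adjusted p = 0.177 by Fisher's exact test). Motif 7, CATCNCTA, was present at 10.6% and 5.12% (odds ratio 2.19, adjusted p = 0.0036 by Fisher's exact test), and at 3.69% of all. The core of the insulator protein BEAF-32, CGATA, which is also part of the DRE, was present at 42.3% and 33.2% (adjusted p = 0.0053 by Fisher's exact test), and at 27.4% of all. The DRE and Motif 7 are known as elements of housekeeping promoters, and BEAF-32 as a protein that binds near the starts of divergent genes.

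A+T-rich motifs were also more frequent. TATAAA, the TATA box, was present at 45.2% of members and 36.1% of single-gene peaks (adjusted p = 0.0053 by Fisher's exact test; 36.9% of all), and the homeodomain core TAATTA at 23.3% and 16.1% (adjusted p = 0.00534 by Fisher's exact test; 17.6% of all). The TAATTA call was lost without replicate 2 (odds ratio 1.28, adjusted p = 0.100 by Fisher's exact test) and among peaks with signals above the median (1.34, adjusted p = 0.205). The GAGA element, GAGAG, was less frequent, at 14.2% and 25.3% (odds ratio 0.486, 0.352 to 0.667, adjusted p = 3.81e-05 by Fisher's exact test; 22.3% of all). Mean G+C was lower in the member windows (34.3% against 36.0%). The windows also differed in their place relative to a start. The nearer start was a median of 98 bp from member summits, and single-gene peaks had a median position of -165 bp. The parts of G+C and of position in these motif differences were not tested. In windows of 50 bp to each side, 2 of the 13 passed, and the DRE, Motif 7, the BEAF-32 core and the TATA box were not among them (adjusted p from 0.435 to 0.708 by Fisher's exact test).

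The other 7 motifs did not pass against single-gene peaks. Motif 1, GGTCACACT, was at 3.81% and 2.08% (adjusted p = 0.158 by Fisher's exact test; 1.37% of all), and Motif 6, GTATATTT, at 5.07% and 3.60% (3.49% of all). The Initiator, TCAGTT, was at 9.09% and 13.4% (adjusted p = 0.0501 by Fisher's exact test; 13.4% of all). The E-box CAGCTG was at 12.1% and 9.28% (7.91% of all) and the E-box CACGTG at 2.11% and 1.94% (1.94% of all). AGATAA, which GATA factors bind, was at 12.3% in both classes (13.6% of all), and CACTG at 43.8% and 48.6% (54.0% of all). CACTG was known from earlier results of these data, so it is not a motif chosen independently of these peaks.

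Set against gap candidates without a thresholded peak, the pattern was another. Here 4 of the 13 passed (30.8%), 2 more and 2 less frequent at members (15.4% each). Members and candidates were not matched for gap width or G+C, and the part of these in the calls was not tested. Motif 1 was at 3.81% of members and 9.72% of the candidates (odds ratio 0.368, 0.196 to 0.665, adjusted p = 0.00278 by Fisher's exact test). The gaps of CG42340 and CG3918 and of Mi-2 and Prp3 shown above were picked for holding Motif 1 and do not bear on this call. Without replicate 1 this call was lost (odds ratio 0.671, adjusted p = 0.254 by Fisher's exact test), as it was with windows of 50 bp to each side (0.319, adjusted p = 0.0827) and 150 bp (0.641, adjusted p = 0.0925). The BEAF-32 core was at 42.3% and 53.5% (odds ratio 0.638, adjusted p = 0.00373 by Fisher's exact test), a call lost with windows of 150 bp to each side (0.761, adjusted p = 0.0933). TATAAA was at 45.2% and 27.5% (odds ratio 2.17, 1.63 to 2.90, adjusted p = 4.22e-07 by Fisher's exact test) and TAATTA at 23.3% and 15.3% (adjusted p = 0.00807 by Fisher's exact test). Without replicate 2 the TAATTA call was lost (odds ratio 1.47, adjusted p = 0.0852 by Fisher's exact test). The DRE (10.4% and 11.1%) and Motif 7 (10.6% and 10.4%), more frequent than at single-gene peaks, did not pass here, with odds ratios of 0.925 (0.593 to 1.44) and 1.02 (0.649 to 1.59) and adjusted p = 0.972 and 1 by Fisher's exact test.

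**Figure D5:**
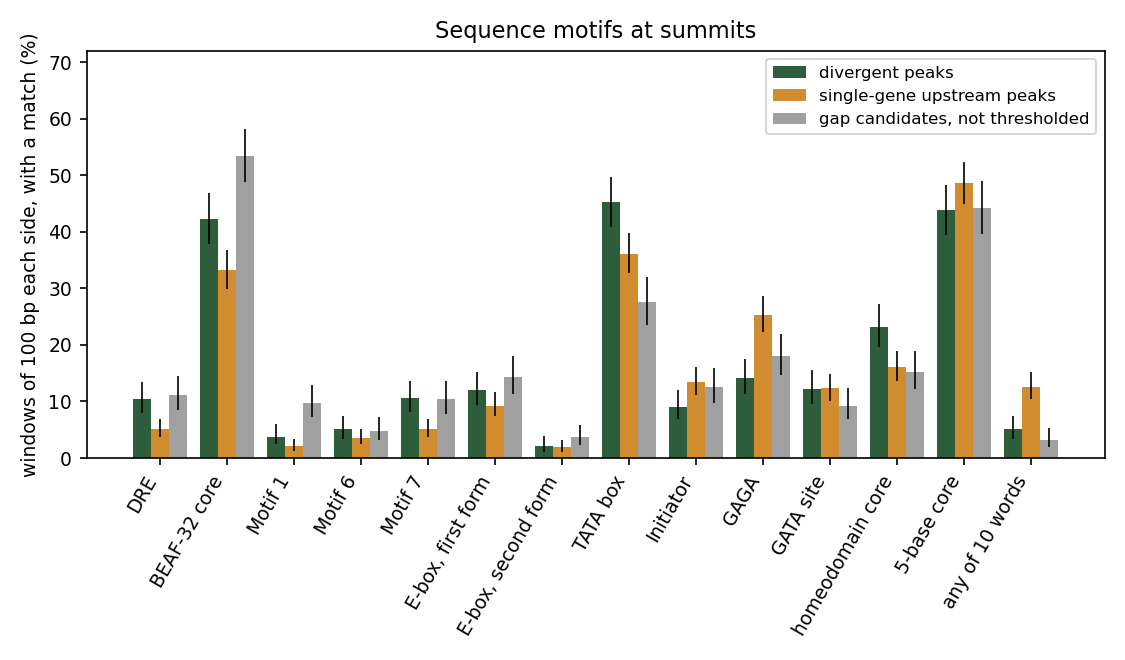
Share of windows of 100 bp to each side of the summit with a match (percent, 95% Wilson intervals) for 13 motifs and for any of 10 words, at divergent peaks, single-gene upstream peaks and gap candidates in no thresholded set. The first form of E-box is CAGCTG, the second CACGTG and the 5-base core CACTG. The DRE is at 10.4%, 5.12% and 11.1% in the 3 classes, and the words at 5.07%, 12.6% and 3.24%.

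Of the DRE, Motif 1, Motif 6 and Motif 7, 342 members held none (72.3%), 121 held 1 (25.6%) and 10 held 2 (2.11%). Signals with and without a motif passed no test for any of the 13 after adjustment. The lowest adjusted p was for the DRE, with a median signal of 128 at 49 members with it and 175 without (adjusted p = 0.0798 by Fisher's exact test). The DRE matches lay a median of 53.5 bp from the summit and the TATAAA matches 47.5 bp, within a window that reaches 100 bp to each side.

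The words that marked ranshi-eGFP peaks elsewhere were rare at divergent summits. Words of 8 bases were ranked by their frequency at summits against positions 700 bp away, using only peaks that were neither divergent nor upstream of a single gene, and the first 10 were counted. Several of them overlap in letters, with CACTGAGA ranked first. At least 1 was present at 24 of 473 members (5.07%, 3.43 to 7.44), at 91 of 722 single-gene peaks (12.6%, 10.4 to 15.2) and at 375 of 1789 other peaks (21.0%), on which the words were chosen. Members and single-gene peaks differed with an odds ratio of 0.371 (0.222 to 0.598, p = 8.82e-06 by Fisher's exact test). This comparison was added after the data were seen. With the same words in windows of 50 bp to each side it was 0.578 and was not passed (p = 0.167 by Fisher's exact test). With words chosen anew at that width it turned to 1.32 (36.4% and 30.2%, p = 0.0274 by Fisher's exact test).

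Of these 10 words, 8 passed against single-gene peaks (80%), each less frequent at members. CACTGAGA was at 2 of 473 members (0.423%) and 31 of 722 single-gene peaks (4.29%, odds ratio 0.0948, 0.0109 to 0.375, adjusted p = 1.59e-04 by Fisher's exact test), and at 5.53% of all conservative peaks. CTCAGTGC was at 1 member (0.211%) and 3.32% of single-gene peaks (adjusted p = 4.45e-04 by Fisher's exact test). CTGAGAGA was at 0 of 473 members, a count that allows up to 0.634%, and at 2.35% of single-gene peaks. TCAGTGCA (1.48% and 2.91%) and ACACTGAG (0.846% and 1.94%) did not pass.

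The word is shown where it was found, since it was rare at members: the 40 bases around CACTGAGA are given at 3 single-gene peaks, with the word in capitals on whichever strand it lies. The genes are brwl (chr2L:9568800-9568839, signal 618), CG31431 (chr3R:21870593-21870632, signal 536) and papi (chr2L:2221686-2221725, signal 517).
brwl: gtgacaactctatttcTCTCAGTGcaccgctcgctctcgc
CG31431: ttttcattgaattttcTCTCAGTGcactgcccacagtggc
papi: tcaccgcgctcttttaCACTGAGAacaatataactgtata

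Divergent peaks did not pass a test for the words against other divergent gaps. With the 10 words chosen on all peaks that were not divergent, 0 of 10 passed against gap candidates without a thresholded peak (0%), and 0 had an unadjusted p under 0.05 by Fisher's exact test. At least 1 word was present at 30 of 473 members (6.34%) and 21 of 432 candidates (4.86%), an odds ratio of 1.32 (0.721 to 2.48, p = 0.387 by Fisher's exact test). The smallest p was for TCAGTGCA, at 7 members (p = 0.0713, adjusted p = 0.713 by Fisher's exact test). CACTGAGA was at 0.423% of members and 0.231% of the candidates.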

How the data were processed

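Binding was measured in 2 biological replicates of 1 group, as numbered in the labels. The deposited files are 8 peak lists on dm6, per the labels: a ranked and a thresholded list for each replicate, and 2 of each for the series. No source used here names the aligner, the peak caller or the read depth. The deposited signal of each peak was used as it stands, within a list. The deposited score, a whole number scaled from the irreproducible discovery rate, was at least 830 in thresholded sets. Summits came from the deposited offsets, and 10 columns of separate inputs in each series ranked list were not used.

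Starts of 13968 protein-coding genes came from Ensembl release 115 on dm6, and sequence from RefSeq. Peaks were matched by an overlap of 1 bp. Single-gene peaks were other conservative summits at most 500 bp upstream of their nearest start. Gap candidates were ranked peaks in divergent gaps that overlapped no thresholded peak. Shares have Wilson 95% intervals, counts of 0 a limit of 3 counts, and tests were Fisher's exact, 2-sided, with Benjamini-Hochberg adjustment within a family, at a threshold of 0.05. The share test and the word search were tested on simulated data.

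Named pairs are the 15 of highest signal, the pair beside ranshi, the 3 narrowest and widest gaps, the 3 highest and 3 lowest ratios of rank share in replicate 1 to that in replicate 2, pairs with 2 peaks, up to 2 per gene list, and 3 on each side of the 500 bp limit. The lowest signal was named after its value was seen, and 1 pair of the 15 is not reported here. The members and the lists were chosen with earlier results of these data known. Python 3.11.15, pandas 2.3.3, numpy 2.4.6, scipy 1.17.1 and matplotlib 3.10.9 were used. Alternatives changed the peak set, the replicate, distances, starts, genes, comparison regions, windows and overlap.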

Additional observations from a re-analysis of the deposited data

How the results depend on the processing

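Of 126 values under alternatives, 53 for the comparisons and 48 for single motifs kept their direction and side of the threshold or, for counts, stayed within 1.5 times. The number of members was 295 with a limit of 250 bp and 351 to 700 otherwise (378 to 572 without a replicate). The share of gaps with a peak kept an odds ratio of 3.33 to 6.42, and both G+C comparisons kept their calls. The odds ratio of signal passed in the larger set (1.44), against all other peaks (1.69) and at 250 bp (1.75), and was 1.13 to 1.49 without a replicate. That of a peak in both replicates turned to 1.10 in the larger set, 1.27 against all other peaks and 1.01 at 250 bp. Windows of 50 bp to each side of the summit left 2 motifs called against single-gene peaks. They gave 6 words called against gap candidates, all with at most 1 G or C, and 0 with the words as chosen at 100 bp. Without replicate 2 or replicate 1, that count was 1 and 0. The odds ratio for any word against single-gene peaks turned to 1.32 with words chosen at 50 bp, and was 0.578 with the words of 100 bp. Single motif calls lost the threshold in 12 cases, 4 of them those of 50 bp windows against single-gene peaks. No paired analysis was possible because there is 1 group.

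Controls and depth were not at hand, so the counting error of the signals could not be estimated and is not given. Only 2 libraries stand behind every value.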
